A study of Homo sapiens with 16 samples.

Results

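The genes described here are 35 human genes that interferons are known to induce, measured in HEK293 cells, a line derived from human embryonic kidney. They were chosen by name, and each was represented by the probe set that was annotated to that gene alone and had the highest mean signal over 16 arrays. Such a probe set was found for 33 of the 35 genes. STAT2 and USP18 had none and were not analysed here. OAS3 lay below the filter on dim probe sets, at a mean log2 signal of 3.82 where the array medians were 4.91 to 4.96, so 32 of the 12495 genes tested were members of the list. The gene listed as DDX58 is given under its current symbol, RIGI.

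All 16 arrays were of cells transfected for 24 h with 500 ng per well of an expression plasmid for the mineralocorticoid receptor (MR), so no array of cells without that plasmid was analysed here. Treatment followed for 4 h, with DOC plus PMA (100 nM and 10 nM), with 10 nM PMA, with 100 nM DOC or with vehicle, and each group held 4 arrays that the labels number as biological replicates 1 to 4. The controls are labelled as having no treatment and are called vehicle here after the text on the study design. DOC is deoxycorticosterone acetate, an agonist of the receptor, and PMA is a phorbol ester, an activator of protein kinase C. The title of the series sets these groups in a study of inflammatory signalling through AP-1 and of its activation by the receptor.

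Interferons are secreted proteins that cells release when they sense viral nucleic acid. Type I and type III interferons bind receptors that activate the kinases JAK1 and TYK2. Their signal leads to a complex, ISGF3, that contains STAT2 and IRF9 and binds the interferon-stimulated response element (ISRE) in promoters, whereas interferon gamma acts through the GAS element. The induced proteins sense or degrade viral RNA, block its translation, restrict viral entry and budding, or carry the signal further. Many are also expressed at a low level without infection.

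The promoters shown are those of the 4 members with the smallest p in the PMA main effect among members with an entry in the promoter table, and they hold different elements. They are RefSeq sequences on GRCh38.p14, from 250 bases before to 50 bases after the annotated start of the gene, and the capitals mark matches to the ISRE, taken as 2 copies of GAAA with 2 bases of any kind between them, or to the GAS element (TTCNNNGAA). Both strands were searched. IRF9 lies at chr14:24161015-24161314 on the plus strand, IFIT1 at chr10:89392373-89392672 on the plus strand, IRF1 at chr5:132490724-132491023 on the minus strand and IFIT3 at chr10:89327747-89328046 on the plus strand. IRF2 and OAS2, which ranked among them by p, had no entry.
IRF9: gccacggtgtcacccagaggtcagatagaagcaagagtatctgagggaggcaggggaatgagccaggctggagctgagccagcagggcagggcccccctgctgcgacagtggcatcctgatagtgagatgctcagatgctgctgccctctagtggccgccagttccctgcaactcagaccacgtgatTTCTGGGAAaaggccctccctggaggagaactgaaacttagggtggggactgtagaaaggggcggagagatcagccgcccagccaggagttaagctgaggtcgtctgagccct
IFIT1: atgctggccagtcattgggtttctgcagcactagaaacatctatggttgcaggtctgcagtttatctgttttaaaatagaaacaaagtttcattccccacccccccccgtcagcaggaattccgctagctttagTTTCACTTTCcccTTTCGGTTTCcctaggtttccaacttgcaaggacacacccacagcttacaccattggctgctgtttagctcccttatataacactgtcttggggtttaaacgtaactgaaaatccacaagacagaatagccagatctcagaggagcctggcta
IRF1: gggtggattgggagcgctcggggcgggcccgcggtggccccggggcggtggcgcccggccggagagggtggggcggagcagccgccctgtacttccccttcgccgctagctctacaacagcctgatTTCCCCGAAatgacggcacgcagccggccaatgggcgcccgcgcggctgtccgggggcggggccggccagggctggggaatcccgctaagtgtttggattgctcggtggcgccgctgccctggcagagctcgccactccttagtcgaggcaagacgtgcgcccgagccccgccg
IFIT3: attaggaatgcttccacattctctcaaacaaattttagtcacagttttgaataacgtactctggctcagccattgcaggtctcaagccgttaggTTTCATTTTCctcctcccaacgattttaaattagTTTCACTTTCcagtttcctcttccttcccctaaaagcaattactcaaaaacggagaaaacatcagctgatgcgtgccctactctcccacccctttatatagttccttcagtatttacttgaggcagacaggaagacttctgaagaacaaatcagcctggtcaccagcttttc
IFIT1 held 2 ISRE matches, at bases -116 to -107 and -103 to -94 from the start, and IFIT3 held 2, at -156 to -147 and -122 to -113, all of them on the strand opposite to the gene. IRF9 held a GAS match at -63 to -55 and IRF1 one at -124 to -116. Of the 26 listed genes with an entry, 19 (73.1%) held an ISRE match, where 3.65% of all 27305 promoters of this length did. A GAS match was found in 7 of the 26 (26.9%), against 7.88% of all promoters. The AP-1 element (TGANTCA) was found in 2 of the 26, IFIT5 and ISG20 (7.7%), against 7.76% of all promoters. A match describes the letters of the promoter and not binding.

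The arrays numbered 1 stood apart in all 4 groups, and the comparisons below are therefore given with all 16 arrays and again with replicates 2 to 4 of every group, a choice made after the values were seen. Replicate 1 was the highest array of its group in all 4 groups for 29 of the 32 genes, where the same held for 1.38% of all genes tested. The other 3 were IRF1, IRF2 and OASL, and replicate 1 was not the highest of 1 group in each. The difference between replicate 1 and the mean of replicates 2 to 4, averaged over the 4 groups, had a median of 0.67 on the log2 scale over the 32 genes and of -0.01 over all genes. The same difference for replicates 2, 3 and 4, each against the other 3, had medians of -0.36, -0.18 and -0.23 over the 32 genes. It was largest for MX2 at 1.28 and MX1 at 1.27, followed by IFI27, OAS1 at 1.19, BST2 at 1.18 and OAS2 at 1.11, and smallest for IRF9 at 0.26. The labels do not say what arrays of one number share, and the part of any technical or culture difference in this shift was not tested.

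The median log2 signal of the 32 genes in single arrays shows the same order. It was 9.03, 8.50, 8.25 and 8.35 in the DOC plus PMA arrays, 9.13, 8.20, 8.20 and 8.07 in the PMA arrays, 9.40, 8.94, 8.86 and 8.87 in the DOC arrays and 9.46, 8.56, 8.62 and 8.49 in the vehicle arrays, in each case for replicates 1 to 4. Replicate 1 of DOC plus PMA and of PMA thus lay above replicates 2 to 4 of DOC and of vehicle. The SD within groups had a median of 0.373 over the 32 genes and of 0.127 over all genes tested. Without replicate 1 these medians were 0.162 and 0.121. The spread was largest for MX2, with an SD of 0.692, and smallest for IRF9, with 0.145.

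**Figure D1:**
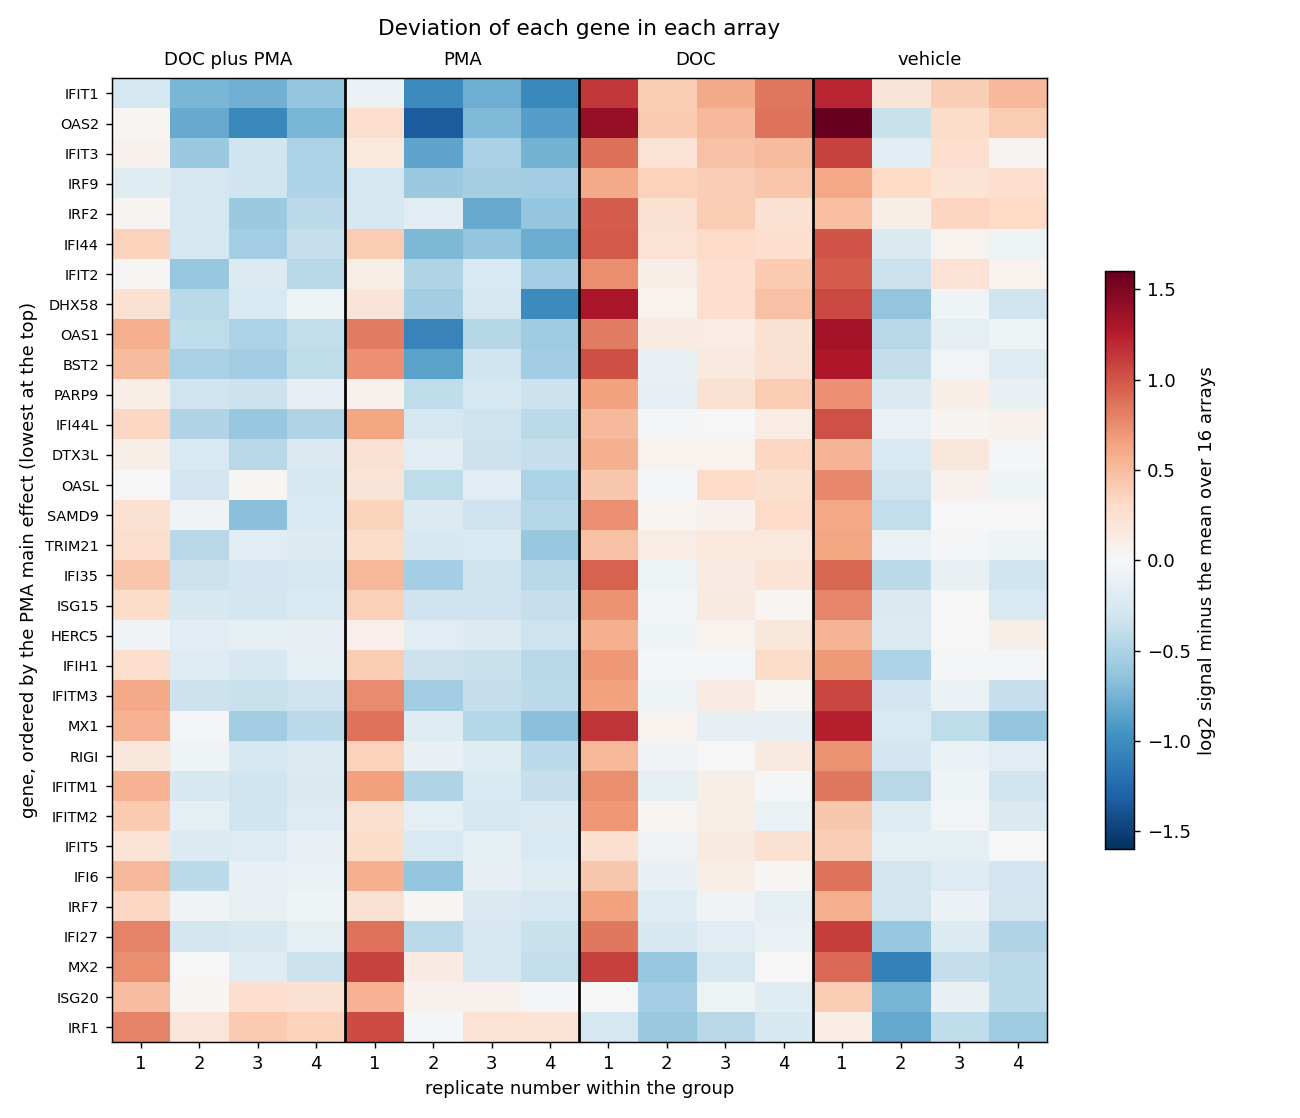
The heat map shows the log2 signal of each of the 32 genes minus its mean over 16 arrays, with genes as rows ordered by the PMA effect and arrays as columns grouped by treatment. The column numbered 1 in each of the 4 groups is the reddest for 29 genes, and the rows of IFIT1, OAS2, IFIT3, IRF9 and IRF2 are bluer in both groups with PMA.

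**Figure D2:**
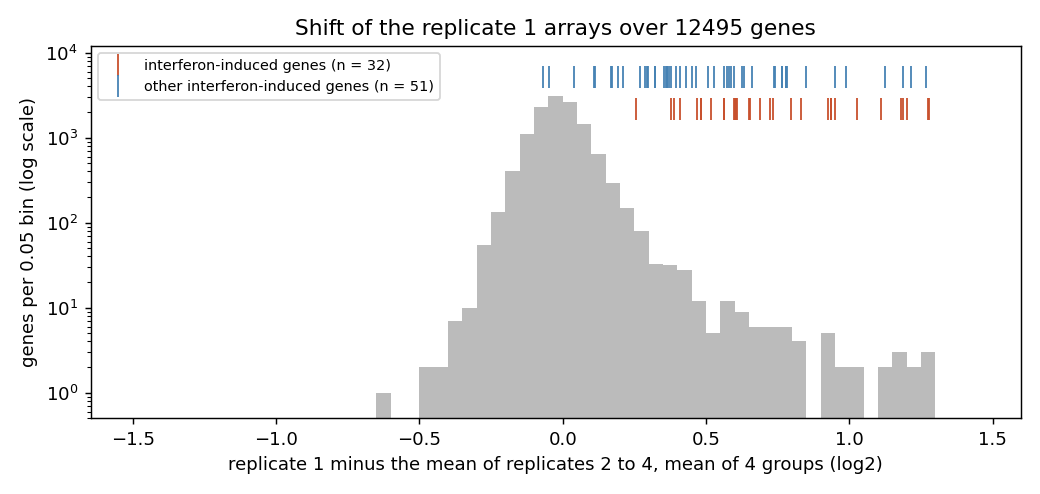
The histogram shows, for 12495 genes, the log2 difference between replicate 1 and the mean of replicates 2 to 4, averaged over 4 groups, on a log scale of gene numbers, with ticks for the 32 genes and for 51 other interferon-induced genes. All 32 ticks lie above 0, from 0.26 to 1.28, where the median of all genes is -0.01.

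Facts of the whole set bear on these values as follows. HEK293 markers were present in every array, among them vimentin and N-cadherin, while PAX2 and EYA1 lay near the array medians. Of the 6, the neurofilament gene NEFM (2.49) and vimentin (VIM, 0.13) rose in the PMA main effect, EYA1 (-0.85), NEFL (-0.42) and PAX2 (-0.31) fell, and CDH2 (-0.05) did not pass. Of the markers of other cells, 3 of 6 for leukocytes, 5 of 7 for endothelial cells and 6 of 6 for fibroblasts lay below the median of every array. The mean log2 signal of the 6 leukocyte markers was 4.53 to 4.73 in DOC plus PMA, 4.55 to 4.62 in PMA, 4.32 to 4.44 in DOC and 4.33 to 4.51 in vehicle arrays, and 3 of them, CORO1A, CD68 and LCP1, rose with PMA by 0.47, 0.30 and 0.13. Of 5 endothelial markers tested 1 rose and 0 fell, with a median of 0.10. The one was TIE1 at 0.23, with 0.47 for PMA minus vehicle and -0.01 for DOC plus PMA minus DOC. Of 2 fibroblast markers tested, COL1A1 rose by 0.19 and POSTN, at -0.18, did not pass. The part of these in the results was not tested. The probe set of NR3C2, the gene of the transfected receptor, averaged 7.02 in DOC plus PMA, 7.21 in PMA, 7.38 in DOC and 7.43 in vehicle. It was lower in the PMA main effect (-0.29, limma adjusted p = 0.00274) and in DOC plus PMA minus DOC (-0.36, adjusted p = 0.00993). It was also lower in DOC plus PMA minus vehicle (-0.41, adjusted p = 0.00413). In PMA minus vehicle it did not pass (-0.22, adjusted p = 0.0967). Whether this probe set reads the transcript of the plasmid is not given in the sources used here.

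With PMA a part of the interferon-induced genes fell, led by IFIT1, OAS2, IFIT3, IRF9 and IRF2, while IRF1 and ISG20 rose. The PMA main effect is the mean of PMA minus vehicle and DOC plus PMA minus DOC, and with all 16 arrays 12 of the 32 genes fell and 2 rose at a Benjamini-Hochberg adjusted p under 0.05 in limma. These counts compare with 35.5% and 21.7% of all 12495 genes. With all arrays, in this fit without the replicate number, the 37.5% of members that fell is thus close to the background. The median change of the 32 genes was -0.33 on the log2 scale, against -0.04 for all genes, and 29 of the 32 estimates were negative, against 56.3% for all genes. With replicates 2 to 4 alone, 23 fell (71.9%) and 2 rose, against 32.0% and 21.2% of all genes, and the median was -0.30. This omission removed the arrays that stood apart for these same genes, so the higher share is not an independent comparison with the background. With all arrays and the replicate number added to the fit as a block, 26 fell (81.2%), against 36.4% of all genes. The count of 14 past the threshold was 22 without PMA replicate 1, where 55.4% of all genes passed. It was 8, where 58.9% of all genes passed, when replicate 2 of PMA, replicate 1 of DOC and replicate 2 of DOC plus PMA were left out. These are called below the 3 arrays that deviated together, a name whose basis is not shown here. Deviations of the 2 arrays numbered 2 correlated at 0.549 over all genes, and DOC replicate 1 was not compared with either. In such bulk samples, fewer cells that express a gene and less RNA per cell cannot be told apart.

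The 2 PMA comparisons share no array, but they share one estimate of the spread and are not independent. Deviations of arrays with the same number correlated at 0.153 to 0.894 over the 32 genes. For PMA minus vehicle, 5 genes fell and 1 rose, against 29.3% and 17.7% of all genes, with a median of -0.25 over the 32 genes. In DOC plus PMA minus DOC, 7 fell and 1 rose, against 26.9% and 15.7% of all genes, with a median of -0.37. Without replicate 1, 11 fell for PMA minus vehicle, against 24.8% of all genes, and 13 passed in either direction, against 40.8%. The same omission gave 21 falls and 2 rises in DOC plus PMA minus DOC, against 22.0% and 14.6%. The shares of members that fell in the 2 comparisons, 15.6% and 21.9%, were thus under the background with all arrays and no block. At 34.4% and 65.6% they were above it without replicate 1, an omission chosen after the values were seen. It lowered the median SD from 0.373 to 0.162 over the members, and from 0.127 to 0.121 over all genes. The median changes of the members, -0.20 and -0.38, stayed close to those with all arrays. The added calls thus came with a narrower spread, and the rise above the background is not an independent result. With all arrays and the replicate block they were 53.1% and 78.1%, against 30.5% and 28.3% of all genes. Single arrays moved these counts too, since 10 members passed for PMA minus vehicle without PMA replicate 1 (42.5% of all genes), where 6 did with all arrays. The other comparison had 14 members past the threshold without vehicle replicate 1 (42.0% of all genes) and 13 without DOC plus PMA replicate 1 (38.3%), where 8 did with all arrays.

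The arrays of the groups overlapped for most genes. In PMA against vehicle, all 4 PMA arrays lay below all 4 vehicle arrays for 3 genes, IRF2, IRF9 and IFIT1, where 26.1% of all genes did. In DOC plus PMA against DOC this held for 6 genes, IRF2, IRF9, IFIT1, IFIT2, IFIT3 and OAS2, where 24.7% of all genes did. Here the DOC plus PMA arrays lay above all DOC arrays for 2 genes, IRF1 and ISG20, where 14.2% of all genes did.

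Between DOC plus PMA and vehicle, 5 genes fell and 1 rose, where 26.3% and 17.5% of all genes fell and rose. The differences were -0.67 for IRF9, -1.18 for IFIT1, -0.62 for IRF2, -1.13 for OAS2 and -0.64 for IFIT3 on the log2 scale, and 0.86 for IRF1 (limma adjusted p = 1.92e-05 to 0.0413, n = 4 per group). The call of OAS2 was lost without vehicle replicate 1 (-0.75, adjusted p = 0.0751), without replicate 3 of DOC plus PMA (adjusted p = 0.0556), and with its probe sets averaged (-0.38, adjusted p = 0.326). That of IFIT3 was lost at -0.38 without vehicle replicate 1 (adjusted p = 0.166), and at -0.55 to -0.65 without any 1 of vehicle replicate 3 or DOC plus PMA replicate 2, 3 or 4 (adjusted p = 0.0657 to 0.107). It was also lost with no filter (-0.64, adjusted p = 0.0505) and with a common median (-0.57, adjusted p = 0.0783). This comparison shares its vehicle arrays with PMA minus vehicle and its DOC plus PMA arrays with DOC plus PMA minus DOC.

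**Figure D3:**
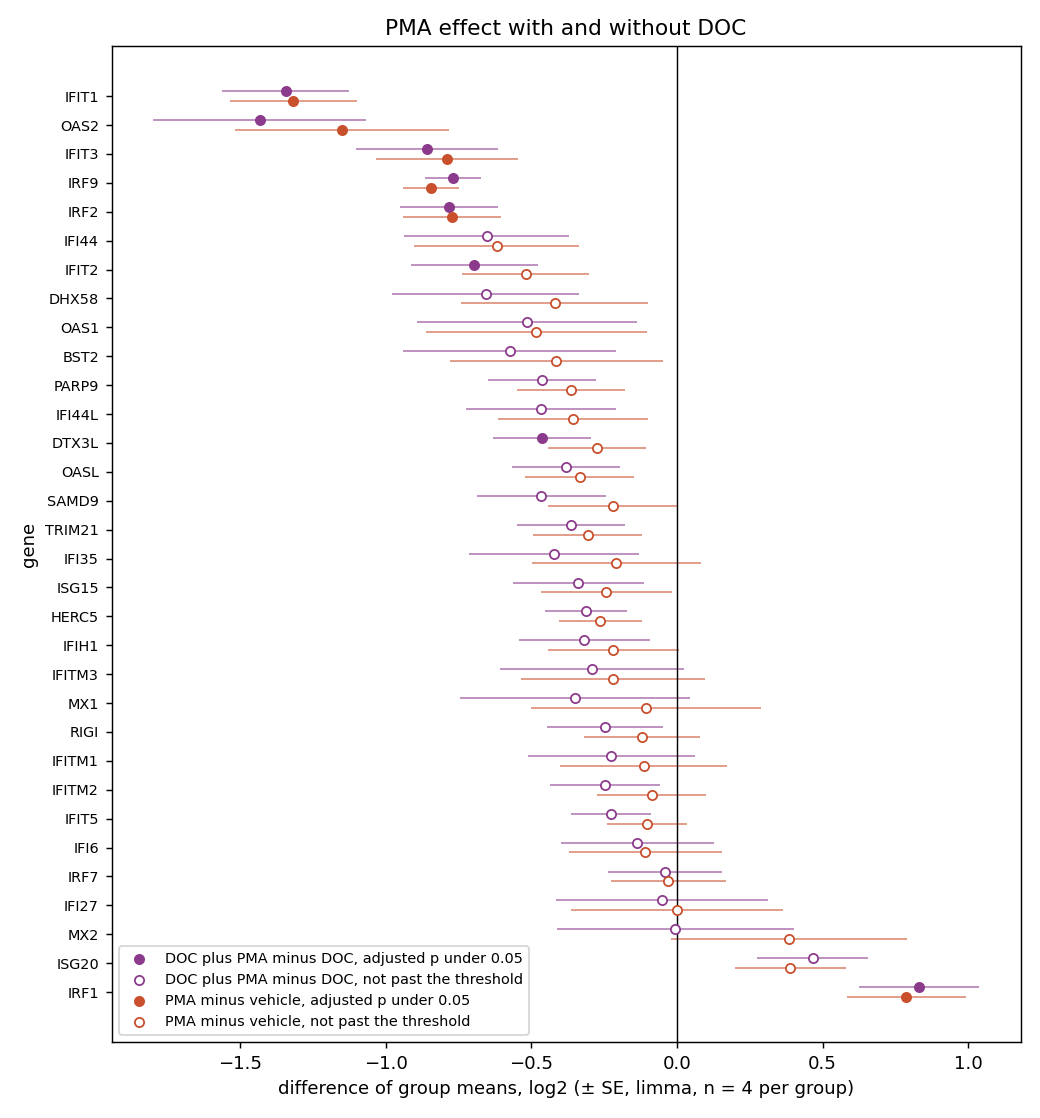
Points give the log2 difference ± SE (limma, n = 4 per group) of DOC plus PMA minus DOC and of PMA minus vehicle for each of the 32 genes, filled where the adjusted p is under 0.05. IFIT1 lies lowest for PMA minus vehicle at -1.32 and IRF1 highest at 0.79, and most other points lie between -0.7 and 0.

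Among the transcription factors, IRF9 and IRF2 fell with PMA and IRF1 rose. IRF9 is the DNA-binding part of ISGF3. Its log2 signal in replicates 1 to 4 was 8.66, 8.59, 8.54 and 8.37 in the DOC plus PMA arrays, 8.58, 8.26, 8.32 and 8.29 in the PMA arrays, 9.47, 9.23, 9.24 and 9.29 in the DOC arrays and 9.48, 9.17, 9.07 and 9.12 in the vehicle arrays. Every array with PMA lay below every array without it, and the shift of replicate 1 was smaller than the change with PMA. IRF9 fell by 0.81 ± 0.07 (SE) on the log2 scale in the PMA main effect (limma adjusted p = 1.31e-08), with differences of -0.85 ± 0.10 for PMA minus vehicle and -0.77 ± 0.10 for DOC plus PMA minus DOC. Its 3 other probe sets gave PMA main effects of -0.66, -0.84 and -0.70.

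IRF2, known mainly as a repressor that competes with IRF1 for its sites, measured 6.04, 5.72, 5.42 and 5.59 in the DOC plus PMA arrays, 5.75, 5.84, 5.19 and 5.39 in the PMA arrays, 6.98, 6.25, 6.42 and 6.25 in the DOC arrays and 6.48, 6.09, 6.35 and 6.33 in the vehicle arrays. The groups with PMA lay wholly below those without, although replicate 1 was not the highest of the PMA arrays. IRF2 fell by 0.78 ± 0.12 in the PMA main effect (limma adjusted p = 1.98e-05), with differences of -0.77 ± 0.17 for PMA minus vehicle and -0.78 ± 0.17 for DOC plus PMA minus DOC.

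IRF1, an activator that many inflammatory signals induce, measured 8.21, 7.61, 7.83 and 7.79 in the DOC plus PMA arrays, 8.47, 7.39, 7.65 and 7.64 in the PMA arrays, 7.14, 6.83, 6.98 and 7.17 in the DOC arrays and 7.54, 6.59, 7.01 and 6.85 in the vehicle arrays. Vehicle replicate 1 lay above PMA replicate 2, so PMA and vehicle overlapped, while DOC plus PMA and DOC did not. IRF1 rose by 0.81 ± 0.15 in the PMA main effect (limma adjusted p = 0.00011), with differences of 0.79 ± 0.21 for PMA minus vehicle and 0.83 ± 0.21 for DOC plus PMA minus DOC. Its 2 other kept probe sets gave 1.09 and 0.67. IRF7, which amplifies the type I interferon response, did not pass at -0.04 and averaged 9.73 ± 0.21 in DOC plus PMA, 9.65 ± 0.24 in PMA, 9.77 ± 0.39 in DOC and 9.68 ± 0.42 in vehicle (SD, n = 4).

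**Figure D4:**
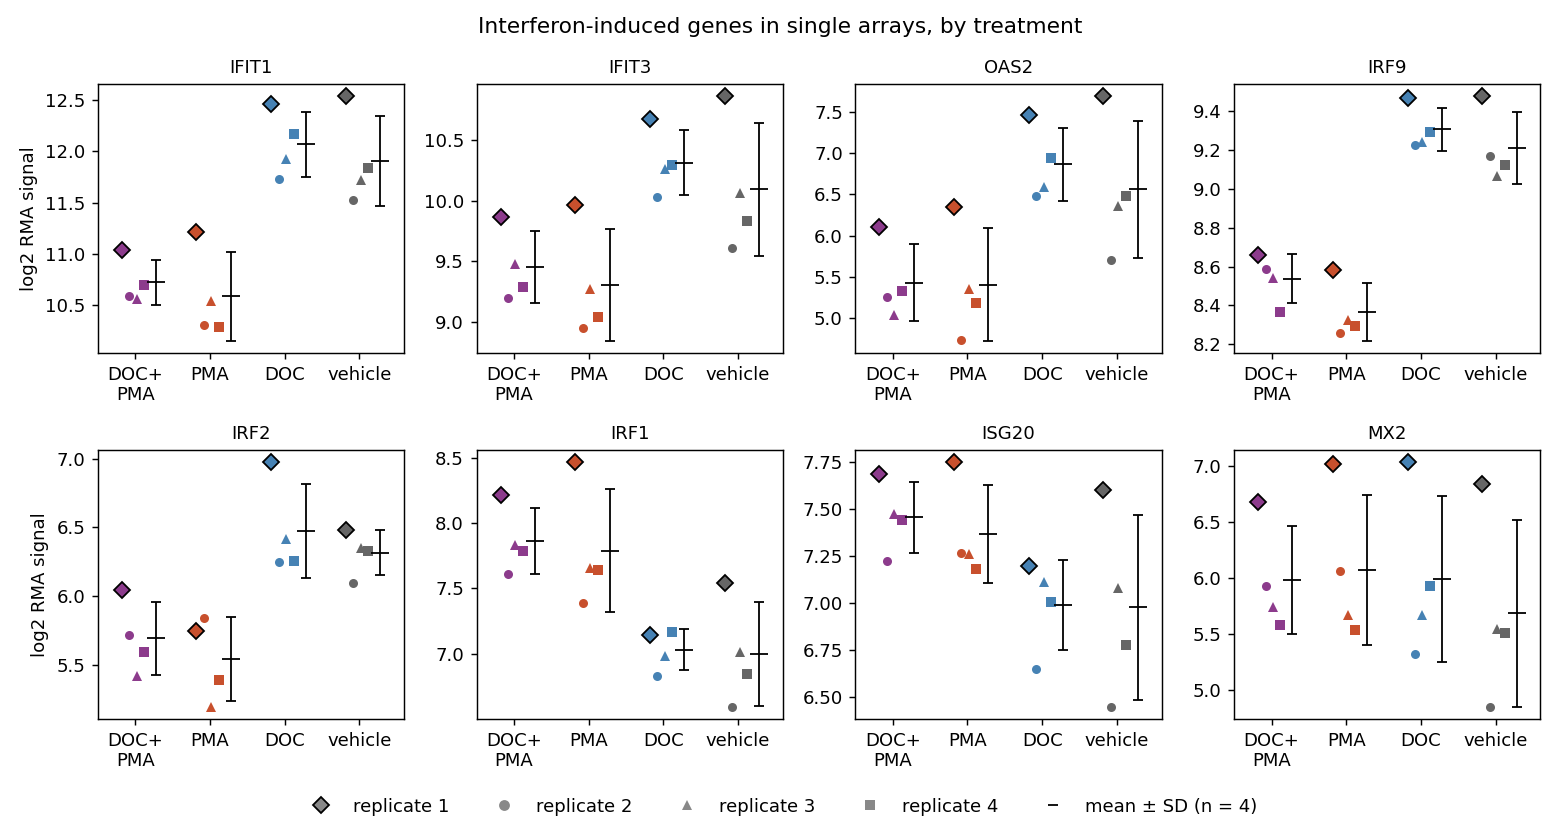
Each panel shows the log2 RMA signal of 1 gene in 16 arrays, by group from DOC plus PMA to vehicle, with a marker for each replicate number and the mean ± SD of 4 arrays. Replicate 1, the outlined diamond, is the highest point in most groups, and IRF9, IRF2 and IFIT1 are lower in every array with PMA than in any array without it.

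The cytosolic RNA sensors RIGI, IFIH1 (MDA5) and DHX58 (LGP2), a regulator of the other sensors, did not pass with all arrays. Their PMA main effects were -0.18, -0.27 and -0.54, the last with a limma adjusted p of 0.0507. Without replicate 1, IFIH1 (-0.24) and DHX58 (-0.40) passed. RIGI averaged 9.55 ± 0.20 in DOC plus PMA, 9.54 ± 0.33 in PMA, 9.79 ± 0.26 in DOC and 9.66 ± 0.46 in vehicle. IFIH1 averaged 9.21 ± 0.25 in DOC plus PMA, 9.11 ± 0.40 in PMA, 9.53 ± 0.34 in DOC and 9.33 ± 0.48 in vehicle, and DHX58 5.77 ± 0.29 in DOC plus PMA, 5.48 ± 0.52 in PMA, 6.42 ± 0.54 in DOC and 5.90 ± 0.73 in vehicle (SD, n = 4 each). For RIGI and IFIH1 each difference of means was smaller than the larger SD of the groups compared. The 2 other kept probe sets of RIGI gave -0.81 and -0.25, so the value depended on the probe set.

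The IFIT proteins bind foreign RNA or block its translation, and 3 of the 4 fell with PMA. IFIT1, which recognises RNA caps that lack host methylation, measured 11.04, 10.59, 10.56 and 10.70 in the DOC plus PMA arrays, 11.21, 10.31, 10.54 and 10.29 in the PMA arrays, 12.46, 11.73, 11.92 and 12.16 in the DOC arrays and 12.54, 11.53, 11.72 and 11.84 in the vehicle arrays. Every array with PMA lay below every array without it. IFIT1 fell by 1.33 ± 0.15 in the PMA main effect (limma adjusted p = 6.91e-07), the largest fall in the list, with differences of -1.32 ± 0.22 for PMA minus vehicle and -1.34 ± 0.22 for DOC plus PMA minus DOC.

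IFIT3, a partner of IFIT1, measured 9.86, 9.20, 9.47 and 9.29 in the DOC plus PMA arrays, 9.96, 8.95, 9.27 and 9.04 in the PMA arrays, 10.68, 10.03, 10.26 and 10.30 in the DOC arrays and 10.87, 9.61, 10.06 and 9.84 in the vehicle arrays. The DOC plus PMA arrays lay below the DOC arrays, while PMA replicate 1 lay above vehicle replicates 2 and 4. IFIT3 fell by 0.83 ± 0.17 in the PMA main effect (limma adjusted p = 0.000474), with differences of -0.79 ± 0.24 for PMA minus vehicle and -0.86 ± 0.24 for DOC plus PMA minus DOC. Without vehicle replicate 1 its change for PMA minus vehicle was -0.53 and did not pass (adjusted p = 0.0518).

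IFIT2, which also binds RNA, measured 11.00, 10.38, 10.77 and 10.54 in the DOC plus PMA arrays, 11.08, 10.50, 10.75 and 10.44 in the PMA arrays, 11.73, 11.08, 11.25 and 11.40 in the DOC arrays and 11.95, 10.65, 11.22 and 11.04 in the vehicle arrays. PMA and vehicle overlapped, and DOC plus PMA lay below DOC. IFIT2 fell by 0.61 ± 0.15 in the PMA main effect (limma adjusted p = 0.00253) with a difference of -0.70 ± 0.22 for DOC plus PMA minus DOC. The second call was lost without DOC replicate 1 (-0.57, adjusted p = 0.0545) or DOC plus PMA replicate 2 (-0.60, adjusted p = 0.0517). Its other probe set gave a main effect of -0.72. IFIT5 did not pass at -0.16, but its other kept probe set gave -0.85. On chromosome 10 no other protein-coding gene lies between IFIT2 and IFIT3 or between IFIT1 and IFIT5.

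The OAS enzymes make 2'-5' linked oligoadenylates that activate the nuclease RNase L, and OAS2 and OASL fell with PMA. OAS2 measured 6.10, 5.26, 5.04 and 5.33 in the DOC plus PMA arrays, 6.35, 4.74, 5.36 and 5.19 in the PMA arrays, 7.46, 6.48, 6.58 and 6.94 in the DOC arrays and 7.69, 5.71, 6.36 and 6.48 in the vehicle arrays. Vehicle replicate 1 lay far above the other vehicle arrays and PMA replicate 1 above vehicle replicate 2, while DOC plus PMA lay wholly below DOC. OAS2 fell by 1.29 ± 0.26 in the PMA main effect (limma adjusted p = 0.000326), with differences of -1.15 ± 0.37 for PMA minus vehicle and -1.43 ± 0.37 for DOC plus PMA minus DOC. That for PMA minus vehicle did not pass at -0.77 without vehicle replicate 1 (adjusted p = 0.0637) and at -0.93 without replicate 2 of PMA (adjusted p = 0.0543). The 3 other kept probe sets of OAS2 gave main effects of -0.52, -0.05 and -0.12, and with all 4 averaged the change was -0.50 and did not pass (adjusted p = 0.0541).

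OASL, a relative of the OAS enzymes that does not make oligoadenylates, measured 7.93, 7.63, 7.95 and 7.68 in the DOC plus PMA arrays, 8.14, 7.53, 7.76 and 7.43 in the PMA arrays, 8.36, 7.91, 8.24 and 8.20 in the DOC arrays and 8.71, 7.62, 8.01 and 7.86 in the vehicle arrays. The groups overlapped in both PMA comparisons. OASL fell by 0.36 ± 0.13 in the PMA main effect (limma adjusted p = 0.0273), and the call was lost without any 1 of 5 arrays, replicate 2 or 4 of PMA, 1 of DOC, or 2 or 4 of DOC plus PMA (adjusted p = 0.051 to 0.0609). OAS1 averaged 7.19 ± 0.51 in DOC plus PMA, 7.06 ± 0.81 in PMA, 7.71 ± 0.34 in DOC and 7.55 ± 0.79 in vehicle (SD, n = 4). Its change of -0.50 did not pass with all arrays and passed at -0.54 without replicate 1, and its other kept probe sets gave -0.08, -0.16 and -0.93. OAS3, between OAS1 and OAS2 on chromosome 12, averaged 3.82 ± 0.15 in DOC plus PMA, 3.85 ± 0.25 in PMA, 3.78 ± 0.16 in DOC and 3.84 ± 0.09 in vehicle and was not tested.

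The MX genes encode GTPases that trap viral nucleocapsids, and neither passed for PMA. MX2 had the widest spread of the 32 genes and measured 6.68, 5.93, 5.74 and 5.59 in the DOC plus PMA arrays, 7.02, 6.06, 5.67 and 5.54 in the PMA arrays, 7.03, 5.33, 5.67 and 5.93 in the DOC arrays and 6.84, 4.85, 5.55 and 5.51 in the vehicle arrays. All groups overlapped, and the gap between replicate 1 and the other arrays of a group was larger than any gap between group means. The PMA main effect of MX2 was 0.19 with all arrays. MX1, its neighbour on chromosome 21, had a change of -0.23 and averaged 8.78 ± 0.50 in DOC plus PMA, 8.78 ± 0.69 in PMA, 9.13 ± 0.61 in DOC and 8.88 ± 0.84 in vehicle (SD, n = 4).

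Among the membrane proteins, IFITM1, IFITM2 and IFITM3 hinder the fusion of viruses with host membranes, and BST2 (tetherin) holds budding virions at the cell surface. None of the 4 passed with all arrays, at PMA main effects of -0.17, -0.17, -0.26 and -0.49 in this order. Without replicate 1, IFITM2 (-0.15), IFITM3 (-0.28) and BST2 (-0.48) passed. IFITM1 averaged 11.16 ± 0.42 in DOC plus PMA, 11.12 ± 0.52 in PMA, 11.39 ± 0.40 in DOC and 11.23 ± 0.58 in vehicle. IFITM2 averaged 9.25 ± 0.33 in DOC plus PMA, 9.22 ± 0.24 in PMA, 9.50 ± 0.36 in DOC and 9.31 ± 0.31 in vehicle, and IFITM3 8.95 ± 0.48 in DOC plus PMA, 8.91 ± 0.61 in PMA, 9.24 ± 0.32 in DOC and 9.13 ± 0.68 in vehicle. The 3 genes are neighbours on chromosome 11 and closely similar in sequence, and their probe sets are of a class whose probes can match related transcripts, so their values are not independent. BST2 averaged 7.19 ± 0.50 in DOC plus PMA, 7.19 ± 0.69 in PMA, 7.77 ± 0.49 in DOC and 7.60 ± 0.76 in vehicle (SD, n = 4 each), and its 2 other kept probe sets gave -0.58 and -0.64.

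ISG15, a ubiquitin-like protein that is joined to other proteins, did not pass with all arrays at -0.29 and passed without replicate 1 at -0.25. It averaged 11.17 ± 0.28 in DOC plus PMA, 11.13 ± 0.36 in PMA, 11.51 ± 0.34 in DOC and 11.37 ± 0.48 in vehicle (SD, n = 4). HERC5, the ligase that attaches ISG15, measured 9.91, 9.80, 9.82 and 9.83 in the DOC plus PMA arrays, 10.05, 9.79, 9.74 and 9.64 in the PMA arrays, 10.54, 9.90, 10.02 and 10.15 in the DOC arrays and 10.51, 9.75, 9.96 and 10.06 in the vehicle arrays. The HERC5 arrays of DOC plus PMA other than replicate 1 lay close together, and the groups overlapped in both PMA comparisons. HERC5 fell by 0.29 ± 0.10 in the PMA main effect (limma adjusted p = 0.0204), and did not pass after scaling to a common median (-0.21, adjusted p = 0.0888).

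ISG20, an exonuclease that degrades RNA, was the other gene that rose, and measured 7.68, 7.22, 7.47 and 7.44 in the DOC plus PMA arrays, 7.75, 7.27, 7.26 and 7.18 in the PMA arrays, 7.20, 6.65, 7.11 and 7.00 in the DOC arrays and 7.60, 6.45, 7.08 and 6.78 in the vehicle arrays. All DOC plus PMA arrays lay above all DOC arrays, while vehicle replicate 1 lay above PMA replicates 2 to 4. ISG20 rose by 0.43 ± 0.14 in the PMA main effect (limma adjusted p = 0.0115), and its changes of 0.39 for PMA minus vehicle and 0.47 for DOC plus PMA minus DOC did not pass on their own. Without replicate 1 they were 0.47 and 0.46 and passed.

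PARP9 and DTX3L form a complex of an ADP-ribosyltransferase family member and a ubiquitin ligase, and no protein-coding gene lies between them on chromosome 3. PARP9 measured 8.38, 7.95, 7.93 and 8.15 in the DOC plus PMA arrays, 8.35, 7.86, 7.98 and 7.92 in the PMA arrays, 8.92, 8.15, 8.52 and 8.68 in the DOC arrays and 9.00, 8.04, 8.38 and 8.15 in the vehicle arrays. The groups overlapped in both PMA comparisons, with PMA replicate 1 and DOC plus PMA replicate 1 above the lowest arrays without PMA. PARP9 fell by 0.41 ± 0.13 in the PMA main effect (limma adjusted p = 0.0117), and its 2 other probe sets gave -0.50 and -0.41.

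DTX3L measured 9.00, 8.65, 8.45 and 8.67 in the DOC plus PMA arrays, 9.14, 8.74, 8.55 and 8.53 in the PMA arrays, 9.47, 8.95, 8.95 and 9.24 in the DOC arrays and 9.44, 8.65, 9.08 and 8.88 in the vehicle arrays. Its groups overlapped as well. DTX3L fell by 0.37 ± 0.12 in the PMA main effect (limma adjusted p = 0.0131) with a difference of -0.46 ± 0.17 for DOC plus PMA minus DOC (adjusted p = 0.0338). The second call was lost without any 1 of 5 arrays, DOC replicate 1 or 4 or DOC plus PMA replicate 2, 3 or 4 (adjusted p = 0.0656 to 0.112), and after scaling to a common median (-0.39, adjusted p = 0.0783). DTX3L was the 1 gene whose kept probe sets differed in sign, with main effects of -0.48 and 0.28 in its other probe sets. With its probe sets averaged both calls were lost, the main effect at -0.19 (limma adjusted p = 0.202) and the other at -0.24 (adjusted p = 0.295). Both were also lost without the 3 arrays that deviated together (limma adjusted p = 0.0662 and 0.185).

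Of the remaining genes, IFI44 and TRIM21 fell. IFI44, a cytoplasmic protein, measured 9.08, 8.42, 8.16 and 8.33 in the DOC plus PMA arrays, 9.11, 7.98, 8.08 and 7.92 in the PMA arrays, 9.68, 8.94, 9.01 and 8.97 in the DOC arrays and 9.71, 8.47, 8.76 and 8.62 in the vehicle arrays. PMA replicate 1 lay above vehicle replicates 2 to 4, whereas replicates 2 to 4 of both PMA groups lay below every array without PMA in their comparison. IFI44 fell by 0.64 ± 0.20 in the PMA main effect (limma adjusted p = 0.0114) and had a change of -0.65 ± 0.06 without replicate 1 (adjusted p = 1.39e-06), and its 3 other kept probe sets gave -0.67, -0.51 and -0.98.

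TRIM21, an antibody receptor of the cytosol with ubiquitin ligase activity, measured 7.49, 6.76, 7.03 and 6.99 in the DOC plus PMA arrays, 7.50, 6.95, 6.96 and 6.60 in the PMA arrays, 7.67, 7.32, 7.37 and 7.37 in the DOC arrays and 7.84, 7.10, 7.17 and 7.13 in the vehicle arrays. The groups overlapped in both PMA comparisons. TRIM21 fell by 0.34 ± 0.13 in the PMA main effect (limma adjusted p = 0.0373). The call was lost without any 1 of 8 arrays, which were vehicle replicate 1, PMA replicates 2, 3 and 4, DOC replicate 1 and DOC plus PMA replicates 2, 3 and 4 (adjusted p = 0.0552 to 0.0862), and after cyclic loess (-0.21, adjusted p = 0.205) or a common median (-0.25, adjusted p = 0.125).

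IFI6, a small membrane protein, averaged 10.54 ± 0.39 in DOC plus PMA, 10.48 ± 0.49 in PMA, 10.68 ± 0.24 in DOC and 10.58 ± 0.57 in vehicle, and IFI27, also a small membrane protein, 8.30 ± 0.52 in DOC plus PMA, 8.23 ± 0.61 in PMA, 8.35 ± 0.51 in DOC and 8.23 ± 0.79 in vehicle (SD, n = 4 each). Their PMA main effects of -0.12 and -0.03 did not pass with or without replicate 1. IFI35 averaged 7.50 ± 0.37 in DOC plus PMA, 7.43 ± 0.50 in PMA, 7.92 ± 0.45 in DOC and 7.63 ± 0.62 in vehicle. IFI44L, the neighbour of IFI44 on chromosome 1, averaged 7.79 ± 0.43 in DOC plus PMA, 8.0 ± 0.49 in PMA, 8.26 ± 0.25 in DOC and 8.35 ± 0.51 in vehicle. SAMD9, which restricts poxviruses, averaged 8.17 ± 0.38 in DOC plus PMA, 8.19 ± 0.36 in PMA, 8.64 ± 0.32 in DOC and 8.41 ± 0.42 in vehicle. IFIT5 averaged 9.00 ± 0.21 in DOC plus PMA, 9.00 ± 0.26 in PMA, 9.23 ± 0.14 in DOC and 9.11 ± 0.26 in vehicle (SD, n = 4 each). The changes of IFI35 (-0.32), IFI44L (-0.41) and SAMD9 (-0.34) did not pass with all arrays, and those of IFI35 (-0.27), IFI44L (-0.45), SAMD9 (-0.33) and IFIT5 (-0.20) passed without replicate 1.

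Most other probe sets of these genes shared the direction of the one chosen, though not always its size. The members had 73 probe sets annotated to them alone, 63 of them above the filter, and 57 of these 63 had a negative PMA main effect. Several kept probe sets were available for 17 genes. Of the probe sets chosen, 10 were of a class (suffix x or s) whose probes can match other transcripts, namely those of IFIT3, OASL, IFITM1, IFITM2, IFITM3, ISG15, DTX3L, IFI27, IFI35 and TRIM21.

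No member passed the threshold for DOC with all arrays. For DOC minus vehicle 0 of the 32 genes passed in limma, 0 had an unadjusted p under 0.05, and 0.12% of all genes passed. The differences ran from -0.10 to 0.52 with a median of 0.16 over the 32 genes and 0.01 over all genes, and 1 of the 32 estimates was negative, against 42.6% for all genes. The smallest p belonged to DHX58 at 0.52 ± 0.32, SAMD9 at 0.23 ± 0.22 and IFITM2 at 0.19 ± 0.19 (limma adjusted p = 0.999 each, n = 4 per group).

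For DOC plus PMA minus PMA, 0 of the 32 passed, 0 had an unadjusted p under 0.05, and 0.384% of all genes passed. The smallest p belonged to IRF9 at 0.17 ± 0.10, IRF2 at 0.15 ± 0.17 and DHX58 at 0.28 ± 0.32. For the DOC main effect, the mean of both DOC comparisons, 0 of the 32 passed, 0 had an unadjusted p under 0.05, and 0.432% of all genes passed, with IRF9 at 0.13 ± 0.07, DHX58 at 0.40 ± 0.23 and IRF2 at 0.16 ± 0.12 leading. The interaction is DOC plus PMA minus PMA, less DOC minus vehicle, and here 0 passed, 0 had an unadjusted p under 0.05, and 0.088% of all genes passed. DTX3L at -0.19 ± 0.24, SAMD9 at -0.25 ± 0.31 and MX2 at -0.39 ± 0.57 had its smallest p.

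Without replicate 1 more genes had an unadjusted p under 0.05 in the DOC comparisons. Only IFI44 passed after adjustment, and only in the DOC main effect. In DOC minus vehicle all 32 differences were positive, with a median of 0.25, and 18 genes had an unadjusted p under 0.05 and were higher, where 2.29% of all genes did. None passed after adjustment, the nearest being IFI44 at 0.35 ± 0.09 and IFI35 at 0.38 ± 0.10 (limma adjusted p = 0.584, n = 3 per group). For the DOC main effect 1 gene passed, IFI44, which rose by 0.33 ± 0.06 (limma adjusted p = 0.0496), where 0.304% of all genes passed in either direction. For DOC plus PMA minus PMA 0 passed, and 3 had an unadjusted p under 0.05. Of these IFI44 (0.31) and IRF9 (0.21) were higher, where 2.65% of all genes were, and IFI44L (-0.18) was lower, where 1.42% were. For the interaction, 0 had an unadjusted p under 0.05 and 0 passed. In the plot of single arrays, vehicle replicate 2 was the lowest vehicle array for OAS2, IFIT1, IFIT3, IRF2, IRF1, ISG20 and MX2, though not for IRF9. It was also the lowest for IFIT2, OASL, HERC5, PARP9, DTX3L, IFI44 and TRIM21. The median of the 32 genes was 8.56 in that array and 8.49 in vehicle replicate 4. Both arrays take part in DOC minus vehicle and in the DOC main effect.

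The genes around the response were read from lists of the pathway, for the PMA main effect with all arrays, where 21.7% of all genes rose and 35.5% fell. Among 10 listed interferons, 2 could be tested and both rose, while IFNA2, IFNE, IFNK, IFNW1 and IFNG lay between 1.53 and 3.12, below the array medians, in every array. IFNL1, a type III interferon, measured 6.17, 5.39, 6.05 and 5.73 in the DOC plus PMA arrays, 6.48, 5.23, 6.07 and 5.43 in the PMA arrays, 4.50, 4.03, 4.78 and 4.65 in the DOC arrays and 4.97, 3.54, 4.40 and 4.06 in the vehicle arrays. Every array with PMA lay above every array without it, and replicate 2 was the lowest array in each group. IFNL1 rose by 1.45 ± 0.20 (limma adjusted p = 6.26e-06). IFNB1, interferon beta, averaged 6.61 ± 0.28 in DOC plus PMA, 6.46 ± 0.47 in PMA, 5.96 ± 0.48 in DOC and 6.04 ± 0.57 in vehicle (SD, n = 4), with overlapping groups. IFNB1 rose by 0.54 ± 0.19 (limma adjusted p = 0.0237), and the call was lost without vehicle replicate 2, replicate 1 of PMA or replicate 2 of DOC (adjusted p = 0.0547 to 0.057), and without all replicate 1 arrays (0.49, adjusted p = 0.0561).

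Receptors and kinases moved both ways, with 2 rises and 2 falls among 10 tested. The interferon gamma receptor chains IFNGR1 and IFNGR2 rose by 0.42 ± 0.05 and 0.54 ± 0.07 in limma. IL10RB, a chain of the type III interferon receptor, fell (-0.43 ± 0.05), as did the kinase TYK2 (-0.16 ± 0.05). TYK2 did not pass after cyclic loess (-0.06), a common median (-0.08) or the omission of all replicate 1 arrays (-0.08). Sensors and adaptors upstream of interferon had 4 rises and 3 falls among 12 tested. The kinase TBK1 (-0.75 ± 0.05) and the mitochondrial adaptor MAVS (-0.54 ± 0.07) fell, while the ubiquitin ligase TRAF6 rose by 0.40 ± 0.05 and the transcription factor IRF3 by 0.54 ± 0.07.

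Inhibitors of interferon signalling had 5 rises and 1 fall among 10 tested. SOCS3, which blocks JAK kinases, measured 5.56, 5.78, 5.38 and 5.64 in the DOC plus PMA arrays, 5.99, 5.23, 5.04 and 5.43 in the PMA arrays, 3.90, 3.88, 3.63 and 3.67 in the DOC arrays and 4.24, 3.30, 3.77 and 3.87 in the vehicle arrays. The groups with and without PMA did not overlap, and SOCS3 rose by 1.72 ± 0.13 (limma adjusted p = 2.44e-09). The phosphatases PTPN2 and PTPN1 rose by 0.48 ± 0.05 and 0.19 ± 0.04, and PTPN6 fell by 0.26 ± 0.05. PTPN2 did not pass with its probe sets averaged (0.11, adjusted p = 0.0979).

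**Figure D5:**
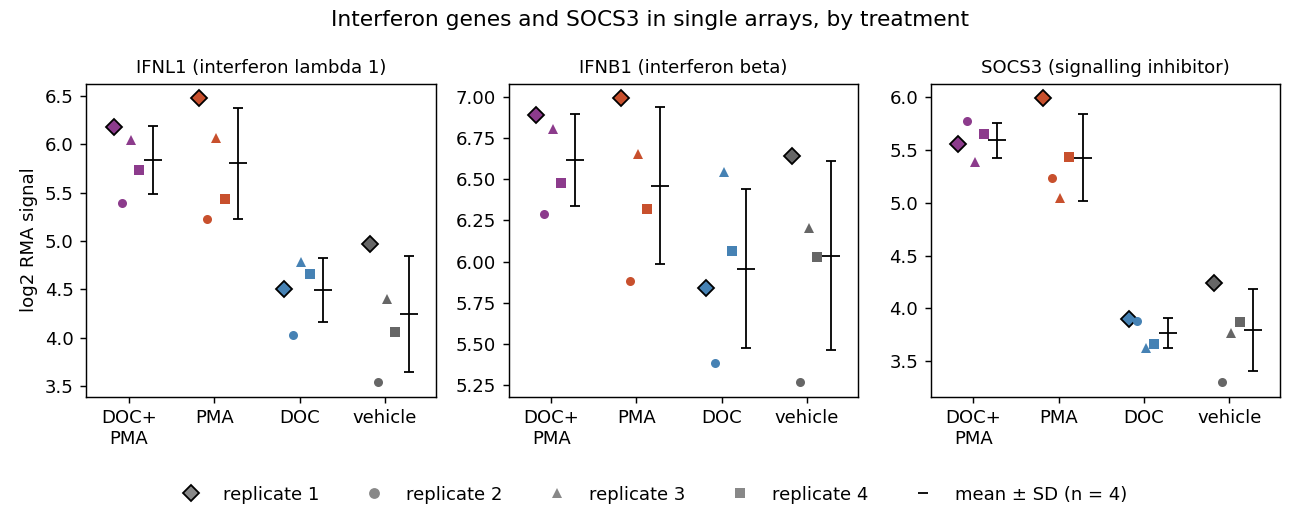
The panels show the log2 RMA signal of IFNL1, IFNB1 and SOCS3 in 16 arrays by group, with a marker for each replicate number and the mean ± SD of 4 arrays. IFNL1 and SOCS3 are higher in every array with PMA than in any array without it, while the IFNB1 groups overlap.

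A further list of interferon-induced genes outside the 35 had 14 falls and 1 rise among 51 tested, with a median of -0.13. SLFN5, an interferon-induced member of the Schlafen family, fell by 1.21 ± 0.13 (limma adjusted p = 2.26e-07), as did the phosphodiesterase CNP (-0.50 ± 0.06), TMEM140 (-0.92 ± 0.13) and TRIM14 (-0.72 ± 0.13), an adaptor of MAVS signalling. Read against the 35.5% of all genes that fell, this share is below the background with all arrays and no replicate block. The list shared the shift of replicate 1, with a median of 0.45. Its shares without replicate 1 or with the block are not given. The comparison therefore does not settle whether these genes fell more or less often than others. SLFN5 and TMEM140 ended below the array medians with PMA, at means of 3.92 and 4.36 in DOC plus PMA and 3.70 and 4.04 in PMA, where a fall can be understated.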

How the data were processed

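Total RNA of 16 samples (100 ng each) was turned into biotin-labelled cRNA by 3' IVT and measured on Affymetrix PrimeView arrays, per the labels' protocols. The log2 signals that the authors deposited came from RMA (robust multi-array average), run with Affymetrix Expression Console according to the submitters' processing notes. No version is named in the labels. This method forces all arrays to a common distribution, so a change of all transcripts in 1 direction cannot be seen.

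The platform annotation named 44988 of 49293 probe sets with 1 gene, 1832 with several and 2473 with none. Of the first, 44961 matched a current gene by gene identifier, over 18132 genes. Probe sets that reached the 40th percentile of signals in 4 or more arrays were kept, and the brightest kept probe set stood for each of 12495 genes. Group means were fitted to all 16 arrays with limma 3.58.1 in R 4.3.3 (lmFit, eBayes), and p-values, two-sided, were adjusted over all 12495 genes by the Benjamini-Hochberg method. The fit was tested on simulated data. No outcome of that test is given here, and whether the fit suits genes with the shift of replicate 1 was not tested. Arrays have no read depth, and their number limits the precision.

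The members, pathway lists, markers and tests were chosen with earlier results of these data known. All listed genes are named. Fold changes are given with their test for every member past the threshold in a comparison, or the 3 with the smallest p, values in every array are given for members past the threshold for PMA and for the member with the widest spread, and 4 genes are named for each pathway list. Promoters came from RefSeq (GRCh38.p14), and no genome build is named for the array files.

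What a replicate number marks is not in the labels. Deviations from group means over all genes correlated at 0.351, 0.549, 0.367 and 0.157 in the 4 same-number pairs of DOC plus PMA and PMA, so these were taken as paired from the data alone. With that block 0 of 32 members passed for DOC plus PMA minus PMA, as without it. Other pairs of groups had at least 1 correlation under 0.1 and were not taken as paired. Alternatives were no filter, a 60th percentile filter, cyclic loess, a common median, averaged probe sets, array weights, a replicate block and left-out arrays.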

Additional observations from a re-analysis of the deposited data

Results flagged for a closer look

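Of 132 sets of 4 arrays, 1 for each gene with a probe set in each group, 25 held an array whose gap to its nearest neighbour, divided by the range of the 4, passed Dixon's 95% critical value for 4 values. By chance about 1 in 20 would. The genes were read on the same arrays and varied together, so the sets are not independent. The share over all genes tested was not computed, so whether 25 of 132 is unusual on these arrays is not known. The sets include OAS3, which lay below the filter. In all 25 the outlying array was replicate 1 and it was the highest, with 9 in DOC plus PMA, 7 in PMA, 6 in DOC and 3 in vehicle.

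In DOC plus PMA the ratio was 0.851 for IRF7, 0.900 for OAS1, 0.891 for IFITM1, 0.976 for IFITM3 and 0.853 for BST2. It was 0.922 for ISG15, 0.863 for IFI27, 0.907 for IFI35 and 0.872 for IFI44L in the same group. In PMA it was 0.880 for IFIH1, 0.870 for IFITM3, 0.951 for ISG15, 0.850 for ISG20, 0.873 for IFI27, 0.859 for IFI44 and 0.856 for IFI44L. In DOC it was 0.844 for IRF7, 0.8295 for OAS1, 0.853 for MX1, 0.866 for IFI27, 0.912 for IFI44 and 0.857 for TRIM21. In vehicle it was 0.919 for IFI6, 0.850 for IFI44L and 0.914 for TRIM21. IFI27 and IFI44L were each past the value in 3 of 4 groups.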

How the results depend on the processing

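The number of the 32 members past the threshold was 14 for the PMA main effect with all arrays, 28 with a replicate block, 25 with replicates 2 to 4 and 8 without the 3 arrays that deviated together, and 12 to 22 with single arrays left out. For PMA minus vehicle the count of 6 was 19 with the block, 13 with replicates 2 to 4 and 5 to 10 with single arrays left out. For DOC plus PMA minus DOC the count of 8 was 27, 23 and 7 to 14 in the same order. For DOC plus PMA minus vehicle the count of 6 was 15, 10 and 4 to 9. For DOC the counts stayed at 0 except 1 for the DOC main effect with replicates 2 to 4, and the block changed no DOC or interaction call. The shares of all genes past the threshold moved less. For the PMA main effect 57.2% passed with all arrays, 58.7% with the block, 53.2% with replicates 2 to 4, 58.9% without the 3 arrays and 54.7% to 58.0% with single arrays left out. With the block 48.9% passed for PMA minus vehicle, 44.6% for DOC plus PMA minus DOC and 46.0% for DOC plus PMA minus vehicle. In this order the shares were 47%, 42.6% and 43.8% with all arrays. They were 40.8%, 36.6% and 38.5% with replicates 2 to 4. With single arrays left out they ran from 42.0% to 48.4%, 38.0% to 45.3% and 38.6% to 46.7%. Falls under the block were 26 of 32 members (81.2%) for the main effect, 17 (53.1%) for PMA minus vehicle and 25 (78.1%) for DOC plus PMA minus DOC, against 36.4%, 30.5% and 28.3% of all genes, so the members lay above the background there. Over all genes, deviations of arrays with the same number correlated at -0.164 to 0.549 in 24 pairs of arrays, and over the 32 members at 0.153 to 0.894. The labels do not say what a number marks, so the pairing of these members by number is a hint from the data. Of 64 named log2 differences under 26 alternatives, 46 kept their direction and side of the threshold in all, and 0 of 1599 values reversed. The 64 include the named DOC and interaction differences, which did not pass with all arrays and kept their side by not passing. All differences that changed side were calls that were lost, so 46 of 64 overstates the share of calls that held. The 65 values that lost their call belonged to OAS2, IFIT3, IFIT2, IFI44, PARP9, DTX3L, HERC5, OASL, TRIM21, IFNB1, TYK2 and PTPN2. With 4 arrays per group and probe sets of varied brightness, small changes of members with a wide spread were not detectable.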

Other observations

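The arrays numbered 1 were also high for interferon-induced genes outside the list of 35. Of the 50 genes with the largest difference between replicate 1 and the mean of replicates 2 to 4, 21 were members, 17 belonged to the further list of interferon-induced genes and 12 to neither. The further list had a positive difference in 49 of 51 tested genes, where 43.1% of all genes did, with a median of 0.45, and replicate 1 was the highest array of all 4 groups in 33. TRIM22, an antiviral ubiquitin ligase, differed by 1.27 and RSAD2 (viperin), an enzyme that makes an antiviral nucleotide, by 1.22. UBE2L6, the conjugating enzyme of ISG15, differed by 1.19, the guanylate-binding protein GBP1 by 1.13 and the immunoproteasome subunit PSMB9 by 0.95. The peptide transporter chains TAP1 and TAP2 differed by 0.74 and 0.63, and the chemokine CXCL10 by 0.76. CXCL10 differed by 0.80 in DOC plus PMA, 1.37 in PMA, 0.05 in DOC and 0.84 in vehicle.

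The 12 genes of neither list, named after their values were seen, were SHFL at 1.01, MLKL at 0.94, LAMP3 at 0.84, SP140L, ATP10A, RASGRP3, HSPB8, CASP4, BATF2, HLA-F, PLEKHA4 and APOL2. SHFL restricts viral RNA and MLKL carries out necroptosis. The difference of APOL2 was 0.61 on average and -0.11 in DOC. What the arrays of one number share is not given in the labels, and no cause was tested.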
